A study of Sus scrofa with 6 samples.

Results

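Genes that govern how myocytes leave the cell cycle were followed in satellite cells of the pig (PSCs). These are stem cells of muscle that exit the cycle and fuse into myotubes. The set was named as 10 genes: the CDK inhibitors CDKN1A, CDKN1B, CDKN1C, CDKN2C and CDKN2D, the pocket proteins RB1, RBL1 and RBL2, and the D cyclins CCND1 and CCND3. Its members are those rows of the expression table whose Ensembl identifier is paired with one of these symbols. This gave 5 of the 10 genes, in a table of 28266 rows: CDKN1A, CDKN2C, CDKN2D, RB1 and RBL1. CDKN1B, CDKN1C, RBL2, CCND1 and CCND3 were not analysed here, so the results cover no D cyclin and only 1 of the 3 CIP/KIP inhibitors.

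The PSCs came from the limb muscles of newborn male Yorkshire pigs and were freed of fibroblasts by letting those attach first to uncoated dishes. They received a negative control (NC) siRNA by lipofection and were then moved to a differentiation medium with horse serum. RNA was sequenced from 3 libraries at 24 h of differentiation (NC24h) and from 3 libraries at the later time (NC36h), and the replicates of either group are numbered 4, 5 and 6. The labels of the later libraries give 48 h, whereas the series title and the paper's methods give 36 h, which is used here. The NC siRNA is read from the letter N of the library titles. All 6 libraries share the breed, the cell type and the siRNA. Neither the labels nor the methods say whether the libraries came from separate animals or cultures, so p-values measure the spread between libraries only.

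Cyclin-dependent kinases drive the cell cycle. Those bound to D cyclins start the phosphorylation of the RB family, the pocket proteins, which otherwise hold E2F transcription factors in check and keep the genes of DNA replication silent. CDK inhibitors stop these kinases. INK4 proteins such as p18 (CDKN2C) and p19 (CDKN2D) bind the D cyclin kinases, and CIP/KIP proteins such as p21 (CDKN1A) bind cyclin and kinase complexes more broadly. In skeletal muscle, RB1 is best known for keeping differentiated myotubes out of the cycle, and p21 for being induced as myoblasts withdraw from it. RBL1 (p107) is itself an E2F target and is typical of cycling cells.

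Expression was deposited as FPKM, the fragments of a gene scaled to the length of its model and to the fragments counted in the library. The values imply between 16382889 and 21896352 counted fragments per library, and 1 fragment on a gene of 1 kb was worth an FPKM between 0.0457 and 0.0610. A gene counted as called if its adjusted p was under 0.05 in limma on log2(FPKM + 1), fitted over the 14060 genes whose FPKM averaged 1 or more. For low genes a change on this scale is smaller than the true fold. Desmin (DES) lay between 1452 and 3367 FPKM and MYOD1 between 246 and 386.4, while PAX7 was not analysed here. Of 5 satellite cell and myoblast markers tested, DES and CDH15 were called higher at 36 h. They rose by 0.91 and 0.61 on the log2 scale (limma adjusted p = 0.00202 and 0.00693). MYF5, MYOD1 and NCAM1 had changes of -0.48, -0.29 and 0.20 and were not called. The summed FPKM of the 6 myocyte markers measured was 3051 to 6999 in NC24h and 15034 to 17029 in NC36h, and all 6 were called higher. Of 8 fibroblast markers 6 were tested, and 2 were called higher and 3 lower. Their summed FPKM was 931.7 to 1003 in NC24h and 828.6 to 1034 in NC36h, a sum that joins opposite changes. COL1A2, DCN and LUM were called lower, by 0.62, 1.48 and 1.19 on the log2 scale. COL3A1 and PDGFRB were called higher, by 0.87 and 0.90, and FAP was not called. COL1A2 lay between 427.8 and 772.6 FPKM, while PDGFRA reached at most 0.680 and FBLN1 at most 0.103, and these last were not tested. Of 5 endothelial, blood and fat cell markers, 2 were tested and none was called, KDR and PTPRC were listed at 0 throughout, PECAM1 lay between 1.01 and 1.67 FPKM, and CD68 had 2.16 to 2.40 FPKM in NC24h and 0.634 to 1.61 in NC36h (limma adjusted p = 0.0523). The extraction text in the labels names the endometrium. There, PGR was listed at 0 in all libraries, EPCAM and FOXA2 in all but 1 each, and CDH1 was called higher, at 0.107 to 0.430 FPKM in NC24h and 2.35 to 4.36 in NC36h. The part of these markers in the results was not tested. A library stood apart in either group. NC24h replicate 6 had the highest mitotic and the lowest myocyte levels of its group, and NC36h replicate 6 had 228.3 FPKM of FOS against 1.81 to 9.27 in the other libraries.

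Of the 4 members that reached the FPKM minimum, RBL1 was called lower at 36 h and none was called higher. That is 1 of 4 members called, where 50.9% of all tested genes were called, 34.4% lower and 16.5% higher. With an unadjusted p under 0.05, and with limma voom on the recovered fragments, the counts were also 1 lower and 0 higher. Of all 14060 tested genes 8198 had an unadjusted limma p under 0.05. Limma voom called 4901 of 14054 genes lower and 2339 higher. The median log2 change of the 4 members was -0.30, against -0.16 for all tested genes. The values of NC24h and NC36h did not overlap for RB1 and RBL1, both lower at 36 h. Of all tested genes 63.6% did not overlap, 42.6% lower and 21.0% higher. In bulk RNA, fewer cells that express a gene and less RNA per cell cannot be told apart.

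**Figure D1:**
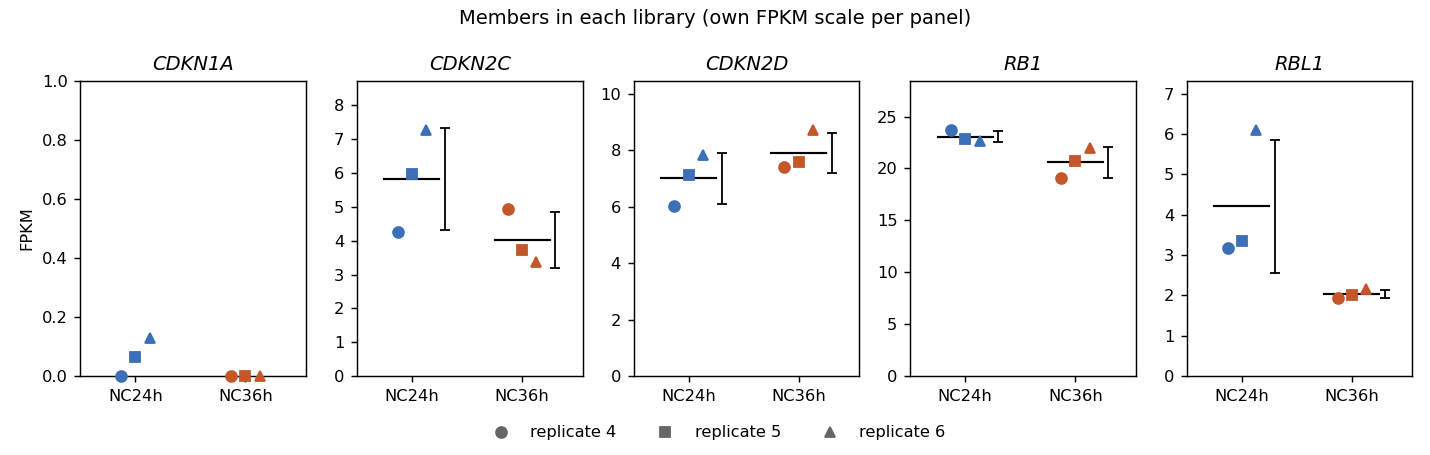
FPKM of the 5 members (vertical axis, a separate scale from 0 in each panel) in the libraries of NC24h and NC36h. Points are libraries with the shape giving the replicate number, the horizontal line is the group mean and the bar beside it is ± 1 SD (n = 3), both left out for CDKN1A. NC24h replicate 6 holds the highest RBL1 value at 6.10, and all 3 NC36h libraries lie between 1.93 and 2.15.

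Among the pocket proteins, RBL1 (ENSSSCG00000007331), the p107 protein that restrains E2F factors and is made by cycling cells, had an FPKM of 3.16, 3.35 and 6.10 in NC24h replicates 4, 5 and 6. In NC36h its FPKM was 1.93, 2.02 and 2.15. All NC36h libraries thus lay under all NC24h libraries, and NC24h replicate 6 stood well above the other libraries of its group. The means were 4.20 ± 1.64 and 2.03 ± 0.11 FPKM (SD, n = 3 each), from 722 and 426 fragments. The log2 change was -0.73 with a standard error of 0.21 and an interval from -1.23 to -0.24 (limma adjusted p = 0.0248). Counting error was at most 8.64% of a library's RBL1 value, while the SD of NC24h was 39.0% of its mean.

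The fall of RBL1 was smaller without NC24h replicate 6, at -0.49 with a standard error of 0.10 and a limma adjusted p of 0.00744. That library also had the highest summed FPKM of 7 mitotic genes, 127.9 against 46.7 and 65.9 in replicates 4 and 5. The call of RBL1 was lost in each fit that left out an NC36h library, with log2 changes of -0.71, -0.73 and -0.76 and limma adjusted p values of 0.0721, 0.0728 and 0.0568 without replicates 4, 5 and 6. Over its 13 alternatives the adjusted p ran from 0.00744 to 0.0728. With limma voom on the recovered fragments, which weights a gene by its fragments and adds no 1 to the FPKM, the fall of RBL1 was larger, at -0.98 (adjusted p = 0.0180). Both ways of rescaling the libraries kept the call, at -0.60 and -0.57 for median ratios and quantiles. In NC36h the SD of RBL1 was 5.40% of the mean, under the counting error of a single library.

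RB1 (ENSSSCG00000009401), the retinoblastoma protein, was the highest member in every library. Its FPKM was 23.7, 22.8 and 22.7 in NC24h and 19.1, 20.7 and 22.0 in NC36h, in the order of the replicate numbers. The groups did not overlap, but the lowest NC24h library and the highest NC36h library lay close together. The means were 23.1 ± 0.539 and 20.6 ± 1.48 FPKM (SD, n = 3 each), from 5329 and 5782 fragments, the most of any member. The log2 change of -0.16 (standard error 0.07, interval from -0.33 to 0.01) was not past the threshold (limma adjusted p = 0.102). This change was almost that of the median gene, since 49.7% of the tested genes had a lower log2 change than RB1. After the libraries were rescaled to a common median ratio of their genes, the log2 change of RB1 was 0.01 with an adjusted p of 0.943. Over its 14 alternatives the adjusted p ran from 0.0666, without NC36h replicate 6, to this value. The SD of RB1 was 2.34% of the mean in NC24h and 7.20% in NC36h, and counting error was at most 2.40% in a library. LPAR6 overlaps RB1 in the RefSeq annotation and an uncharacterized locus overlaps RBL1, and the sources do not say whether strand was used in counting.

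As both pocket proteins are measured in the same library, their ratio does not depend on a common scaling factor for that library. Quantile normalization is not such a factor and can change it. RB1 exceeded RBL1 in FPKM by 7.48, 6.80 and 3.72 times in NC24h and by 9.86, 10.2 and 10.2 times in NC36h. The NC36h ratios were all above the NC24h ratios. The means were 6.0 ± 2.01 and 10.1 ± 0.214 (SD, n = 3 each), with an exact two-sided permutation p of 0.1, the smallest that 3 against 3 can give. The ratio was chosen after the values were seen, and its size rests on the gene models of the annotation.

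The INK4 inhibitors were measured at low to moderate levels, and neither was called. CDKN2C (ENSSSCG00000003876), which encodes p18, had an FPKM of 4.25, 5.96 and 7.27 in NC24h replicates 4, 5 and 6. In NC36h it had 4.95, 3.73 and 3.36. The groups overlapped, as NC36h replicate 4 lay above NC24h replicate 4. The means were 5.83 ± 1.51 and 4.01 ± 0.830 FPKM (SD, n = 3 each), from 382 and 324 fragments, and the log2 change was -0.43 (standard error 0.19, interval from -0.90 to 0.03, limma adjusted p = 0.102). Without NC24h replicate 4, the lowest of its group, the change was -0.61 with an adjusted p of 0.0264. The range over its 13 alternatives was 0.0264 to 0.264, and the largest of these came with quantile normalization. The direction was down in each of them. The SD of CDKN2C was 25.9% and 20.7% of the group means, and counting error was at most 11.2% in a library.

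CDKN2D (ENSSSCG00000013643), which encodes the p19 inhibitor of the D cyclin kinases, was the only member with a higher mean at 36 h. Its FPKM was 6.02, 7.13 and 7.84 in NC24h and 7.41, 7.60 and 8.70 in NC36h. NC24h replicate 6 lay above 2 of the 3 NC36h libraries, so the groups overlapped. The means were 7.0 ± 0.913 and 7.90 ± 0.701 FPKM (SD, n = 3 each), from 512 and 703 fragments. The log2 change of 0.16 (standard error 0.11, interval from -0.11 to 0.42) was not past the threshold (limma adjusted p = 0.267). Rescaling by median ratios made CDKN2D a call, higher by 0.31 (adjusted p = 0.0452), and so did quantile normalization, higher by 0.34 (adjusted p = 0.0253). These scalings moved the median change of all genes from -0.16 to -0.006 and -0.04. Its adjusted p ranged from 0.0253 to 0.618 over 14 alternatives, and its change was positive in all of them. The SD was 13.1% and 8.86% of the mean in NC24h and NC36h, against a counting error of at most 8.16% in a library.

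**Figure D2:**
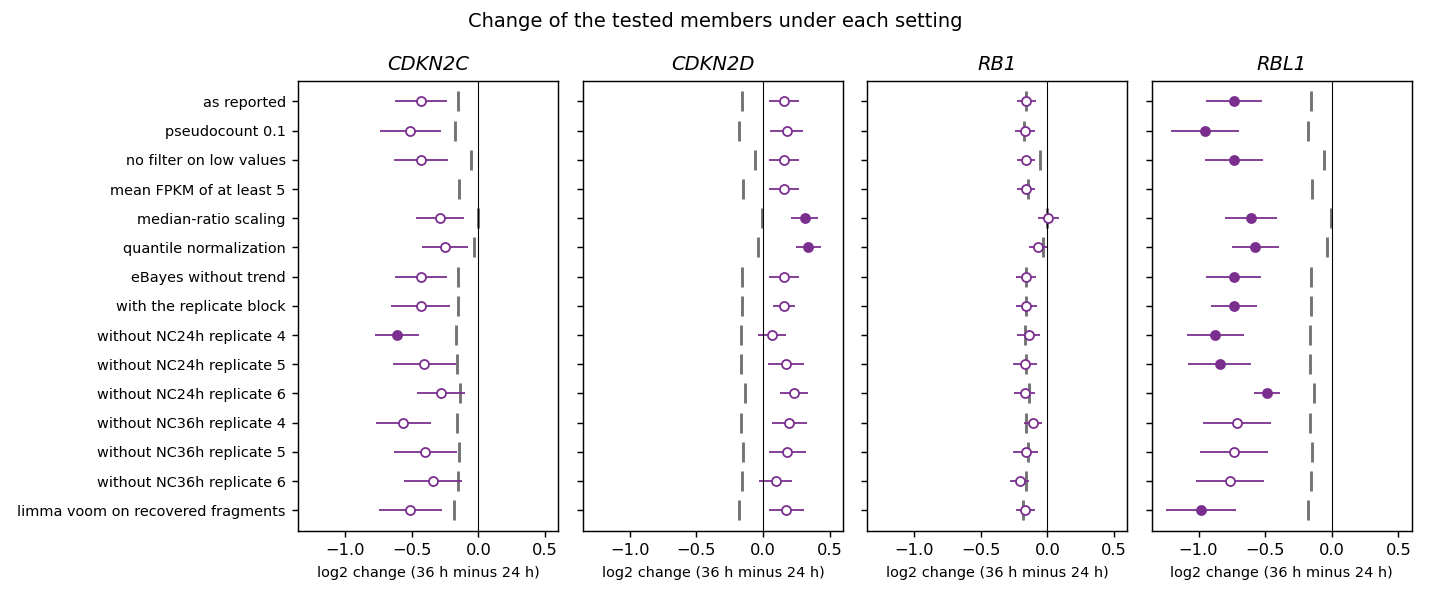
Log2 change of the 4 tested members (horizontal axis, 36 h minus 24 h, bars ± 1 standard error) under each setting (rows). Filled points have an adjusted p under 0.05, and the short grey line in a row is the median change of all genes in that setting. CDKN2D lies to the right of that median in every row, RBL1 lies to its left in every row in which it was tested, and RB1 is on or near it.

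Within the INK4 pair, CDKN2D stood at 1.42, 1.2 and 1.08 times the FPKM of CDKN2C in NC24h and at 1.5, 2.03 and 2.59 times in NC36h. The groups did not overlap in this ratio, although they overlapped in either gene. Mean ratios were 1.23 ± 0.171 and 2.04 ± 0.546 (SD, n = 3 each), with an exact two-sided permutation p of 0.1, the smallest possible here. This ratio too was chosen after the values were seen.

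CDKN1A (ENSSSCG00000001565), which encodes p21, was listed at 0 in 4 of the 6 libraries. Its FPKM was 0.0645 in NC24h replicate 5 and 0.128 in NC24h replicate 6, which correspond to 1 and 2 fragments if the gene model has 947 bases. A count of 0 allows up to 3 fragments, or an FPKM of 0.145 to 0.187 over the 4 libraries at 0. CDKN1A lay under the FPKM minimum and was not tested, and no fold is given. Genes that dividing cells use were also close to 0 in this table. CDK4, the kinase partner of D cyclins, lay between 0.293 and 0.446 FPKM, and HDAC1, a deacetylase recruited by RB1, lay between 0 and 0.104. A value near 0 is therefore reported as listed and not as absence of the transcript.

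In NC36h the members were ordered RB1, CDKN2D, CDKN2C, RBL1 and CDKN1A by FPKM, with no overlap between neighbours over the 3 libraries. The order of the means was the same in NC24h. There, however, CDKN2D (6.02 to 7.84) overlapped CDKN2C (4.25 to 7.27), and CDKN2C overlapped RBL1 (3.16 to 6.10). RB1 had a mean FPKM above 70.8% of the tested genes, and RBL1 above 21.6%.

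**Figure D3:**
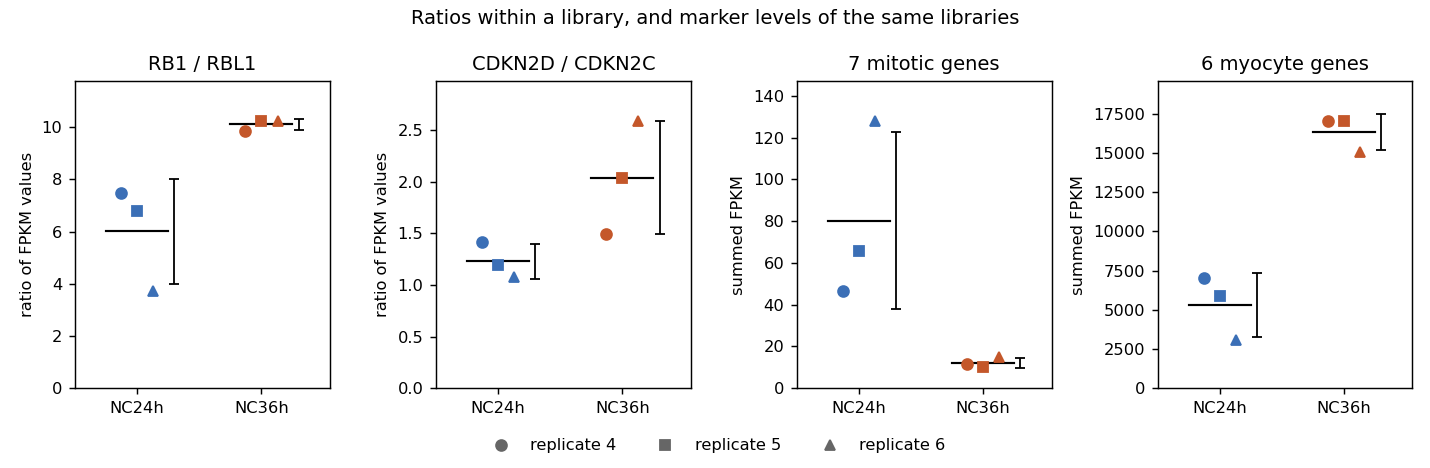
Ratio of RB1 to RBL1 and of CDKN2D to CDKN2C in FPKM, and the summed FPKM of 7 mitotic and 6 myocyte genes, for each library of NC24h and NC36h. Points are libraries, lines are means and bars ± 1 SD (n = 3). NC24h replicate 6 has the lowest of both ratios, the highest mitotic sum at 127.9 and the lowest myocyte sum at 3051.

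The relatives and partners of the members were read from lists of genes with known roles, chosen with earlier results of these data known. Among the relatives, CDKN2A, the INK4 locus that also encodes ARF, had an FPKM of 1.41, 2.18 and 2.71 in NC24h and 3.72, 4.49 and 2.81 in NC36h. The NC36h values were all above the NC24h values, the closest being those of the replicates numbered 6. CDKN2A rose by 0.60 on the log2 scale (standard error 0.20, limma adjusted p = 0.0449), from 35 and 76 fragments. It lost the call in 7 of its 13 alternatives, among them the fits without replicates 4 or 5 of either group, and the adjusted p ranged from 0.0152 to 0.145. CDKN3, the other relative tested, overlapped between the groups and was not called (log2 change -0.02, limma adjusted p = 0.872). Thus 1 of 2 relatives was called higher, beside 16.5% of all tested genes. CCND2 and CDKN2B were not analysed here.

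Of 7 E2F and DP factors, 3 were called lower and 0 higher, beside the 34.4% of all tested genes called lower. Voom also called 0 higher. The family includes partners that pocket proteins bind, but not every factor in it is one. All 7 had a negative change (median -0.32). The activator E2F1 had an FPKM of 7.61, 9.48 and 16.9 in NC24h and 2.89, 3.19 and 4.09 in NC36h, and fell by 1.43 on the log2 scale (limma adjusted p = 0.00556). As for RBL1, NC24h replicate 6 was its highest library. The S-phase repressor E2F8 fell by 1.46 (limma adjusted p = 0.00558) and the DP partner TFDP1 by 0.32 (limma adjusted p = 0.0122). TFDP1 was no longer called with median-ratio scaling (adjusted p = 0.166) or without NC36h replicate 5 (adjusted p = 0.0508). E2F4, a repressor bound by RBL1 and RBL2, lay between 34.5 and 41.3 FPKM, with a log2 change of -0.13 (limma adjusted p = 0.142).

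**Figure D4:**
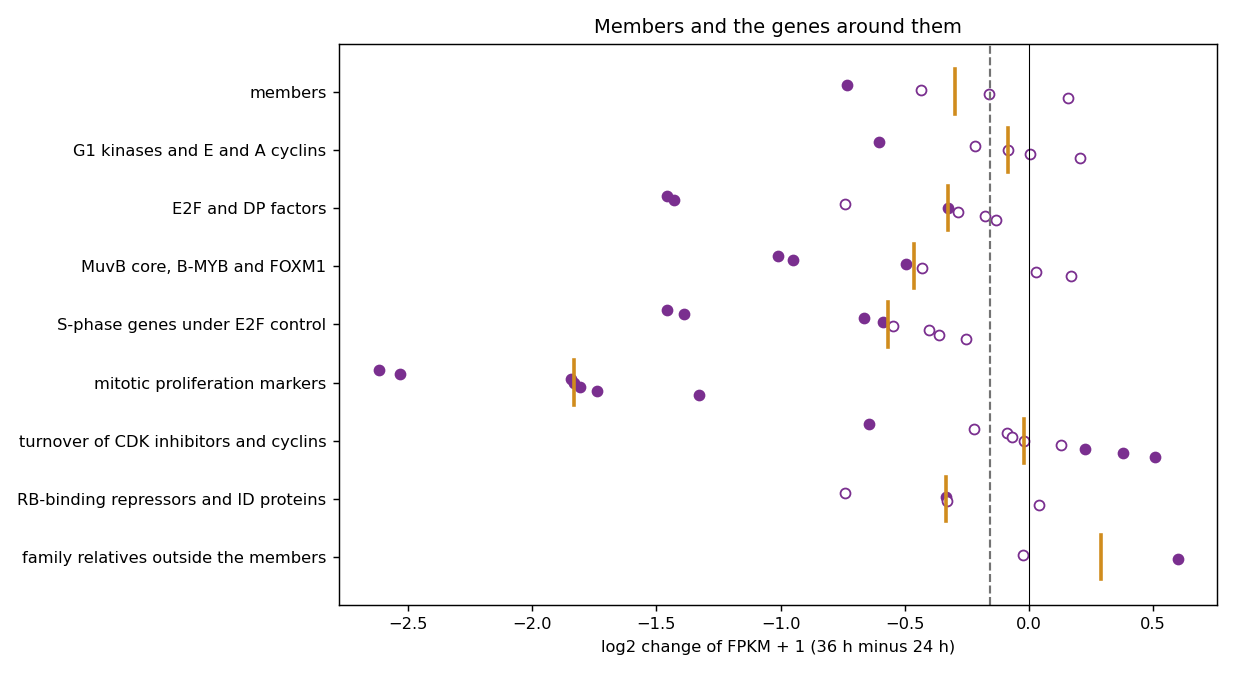
Log2 change (horizontal axis, 36 h minus 24 h) of each tested gene of the members and of 8 gene lists (rows). Filled points have a limma adjusted p under 0.05, the orange line is the list's median and the dashed line the median of all tested genes at -0.16. The mitotic list lies farthest to the left at a median of -1.83, and its 7 genes are all filled.

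Among genes downstream of the pocket proteins, the mitotic list had the most calls. Counts for these lists stand beside 34.4% of all tested genes called lower and 16.5% called higher. All 7 mitotic genes were called lower, with a median log2 change of -1.83, and AURKB lost its call without NC36h replicate 4 and without NC36h replicate 5. Of 8 S-phase genes, CDC45, MCM3, POLA1 and RRM1 were called lower, and MCM3 at -1.39 was the 1 whose call held in every fit that left out a library. The other 4, MCM2, MCM4, MCM5 and CDT1, overlapped between the groups and were not called. POLA1 and RRM1 also lost their calls with median-ratio scaling, quantile normalization and no filter, and POLA1 in 8 of its 14 alternatives. Of 6 MuvB-related genes, which silence cell cycle genes with RBL1 and RBL2 or activate them with B-MYB and FOXM1, LIN9, MYBL2 (B-MYB) and FOXM1 were called lower at -0.50, -0.95 and -1.01. MYBL2 lost its call in 7 of 14 alternatives, among them both rescalings (adjusted p = 0.0543 and 0.0571), and was at -0.61 without NC24h replicate 6. FOXM1 was at -1.97 with limma voom. LIN54, DYRK1A and MYBL1 of this list had changes of 0.03, 0.17 and -0.43 and were not called. With median-ratio scaling 1 gene of the list was called higher. Without NC36h replicate 4, and likewise without NC36h replicate 5, 1 S-phase gene and 1 MuvB-related gene were left as calls. Without NC24h replicate 6 the 7, 4 and 3 calls of the mitotic, S-phase and MuvB lists were kept, with median changes of -1.47, -0.28 and -0.31 in place of -1.83, -0.57 and -0.46.

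Of 5 genes tested in the list of G1 kinases, their activators and cyclins (CDK7, CCNH, MNAT1, CCNE1 and CDC25A), 1 was called, the E cyclin gene CCNE1, which fell by 0.60 (limma adjusted p = 0.0132). This count and those of the lists below stand beside 34.4% of all tested genes called lower and 16.5% called higher. The ubiquitin ligase genes that set the turnover of CDK inhibitors and cyclins moved in both directions. Of 9 tested, 3 were called higher and 1 lower, where 50.9% of all tested genes were called. CUL4A, a scaffold of the ligase that degrades p21, rose by 0.51 (limma adjusted p = 0.00370), and its paralog CUL4B fell by 0.65 (limma adjusted p = 0.00295), both without overlap between the groups and in all 14 alternatives. AMBRA1 and FBXO31, whose ligases act on D cyclins, rose by 0.23 and 0.38 and lost their calls in several fits (adjusted p up to 0.145 and 0.0930). SKP2, the receptor for p27, overlapped between the groups (log2 change -0.22, limma adjusted p = 0.140). Of 4 RB-binding genes, HDAC2 was called lower at -0.34 (limma adjusted p = 0.00377). With median-ratio scaling its adjusted p of 0.0564 missed the threshold, and 1 gene of the list was called higher. Limma voom called 3 of these genes lower, and the replicate block and a minimum mean FPKM of 5 called 2 lower each. Of 4 inducers of D cyclins in the reported fit, EGR1 alone was called. It had 568.6 FPKM in NC36h replicate 6 against 47.8 and 64.6 in replicates 4 and 5, and its call (log2 change 2.94, limma adjusted p = 0.0278) was lost without any 1 of the NC24h libraries. Without NC36h replicate 6 the change of EGR1 was 1.83 with an adjusted p of 0.00285.

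The 3 genes with a symbol whose log2(FPKM + 1) was most like that of RBL1 were FBLIM1, CLSTN1 and GRIA3, with Pearson's r of 0.9998, 0.9987 and 0.9983. These values describe 6 libraries in 2 groups. All 3 shared the high value of NC24h replicate 6, FBLIM1 with 3.52, 3.77 and 7.66 FPKM in NC24h and 1.91, 2.04 and 2.26 in NC36h. As no member was called higher, no such genes are given for a rise.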

How the data were processed

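The authors sequenced paired-end Illumina reads, mapped them with HISAT2 2.0.2 to Sscrofa11.1, assembled them with StringTie 1.2.2 and counted them with HTSeq 0.6.1, whereas the submitters' processing notes name TopHat2 and Cufflinks beside HTSeq. They deposited FPKM values, 1 column per library. Strandedness, shared reads and the annotation release are not given in the sources used here. The Ensembl numbers of the table end at 31070, and none of the 3819 higher identifiers of the name table was in it, so the annotation was older and no coordinates are given. Symbols were paired with 11804 of 25322 identifiers. Sequences were not used here.

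A linear model on log2(FPKM + 1) was tested two-sided with limma 3.58.1 (R 4.3.3, eBayes with trend), with Benjamini-Hochberg adjustment over the 14060 genes whose FPKM averaged 1 or more. Both steps were tested on simulated data. Whole fragments were recovered from the FPKM steps for 19537 of 19543 genes (within 0.02 of a whole number). Intervals are 95% limma intervals. A 0 was taken to allow 3 fragments, for counting error only.

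Named genes are the members, the genes of the fixed lists and the 3 genes most like the called member. Some genes of the lists are not reported here. Members, lists and tests were chosen with earlier results of these data known. Alternatives were voom on the recovered fragments, each library left out in turn, the replicate block, quantile normalization, median-ratio scaling, no trend in eBayes, a minimum mean FPKM of 5 or none, and a pseudocount of 0.1. Those for the lists were added after the values were seen.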

Additional observations from a re-analysis of the deposited data

How the results depend on the processing

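The members called lower were 1 (RBL1) in the reported fit, 0 with a mean FPKM of at least 5, which removes RBL1 and CDKN2C by construction, and 0 to 2 over the fits that left out 1 library, with 0 without any of the NC36h libraries and 2 without NC24h replicate 4, where CDKN2C was added. The members called higher were 0 in the reported fit and 1 (CDKN2D) with either median-ratio scaling or quantile normalization. RB1 changed its sign with median-ratio scaling alone, to 0.00767. RBL1 kept its direction in all 13 alternatives and its call in 10. The number of genes called, 7156, stayed within 1.5 times of itself (4889 to 7336 over the fits without 1 library). Of the genes called, 32.4% were higher, and 51.8% and 46.2% after rescaling by median ratios and by quantiles.

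Libraries with the same number deviated from their group means together only in part across genes (correlation 0.15, -0.02 and 0.18 for numbers 4, 5 and 6), so the numbers were not taken as pairs. With the replicate block 7034 genes were called and no member changed its call (log2 change of RBL1 -0.73, adjusted p = 0.0208). CDKN2A (adjusted p = 0.0634) and FBXO31 (adjusted p = 0.0606) lost their calls with the block. CDKN1A had 2 fragments or fewer per library, too few to compare. The cause of each change of call was not tested.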
